A study of Mus musculus with 2 samples.

Results

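The genes described here are 9 genes of the macrophage lineage: the transcription factor genes Spi1, Cebpa, Cebpb, Cebpd, Runx1, Maf, Mitf and Tfec, and the receptor gene Csf1r. They were taken by name from the mm10 gene annotation, with no peak value in the rule, and are 9 of 21887 protein-coding genes. KAT8, a MYST-family lysine acetyltransferase, was mapped by CUT&Tag in wild-type bone marrow-derived macrophages, which were grown from mouse marrow in M-CSF (20 ng/ml). One group received the TLR7 agonist R848 (100 ng/ml) for 2 h and the other stayed untreated. There was 1 library per group, which leaves every difference given here without a replicate check and without a p-value. How many mice gave the marrow is not given in the sources used here.

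PU.1, the product of Spi1, and the C/EBP factors set up the myeloid programme together with RUNX1 and open the enhancers of macrophage genes. CSF1R is the receptor through which M-CSF keeps macrophages alive, and its gene is a known target of PU.1, C/EBP and RUNX1 in mouse and human cells. MAF, MITF and TFEC act later in the lineage: MAF in differentiated macrophages, and MITF and TFEC, of the MiT/TFE family, in osteoclast and lysosomal gene control. KAT8 acetylates histone H4 as part of the MSL and NSL complexes.

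For each gene, every peak with a base between 50 kb before and 50 kb after it was collected, and 2 peaks were called shared when they overlapped by at least 1 bp. Each peak carries the authors' fold over background, −log10 p and −log10 q. These rank a peak within its own library and are not a measure of change between the libraries. The number of fragments stacked at the summit (the pileup) was recovered from the fold and the p, and its 95% exact Poisson interval covers counting error only. Peak names in the list labelled R848 begin with MOF0h2h and those in the untreated list with MOF0h, and no source used here says what MOF0h2h stands for. Whether the R848 list was called on the 2 h library alone is therefore not known, and every R848 value here is that of the list so labelled. It held 44772 peaks and the untreated list 52001, and the background most often found was 2.62 and 3.37 fragments, so a peak of a given fold rested on fewer fragments in the R848 library. The total reads of each library were not used here. Of the macrophage markers, 7 of 7 had a window peak in each list, but so had 6 of 6 B cell markers, so peaks do not check the labelled cell type. Of the T cell markers, 6 of 6 had an R848 window peak and 4 of 6 an untreated one. For granulocytes the count was 3 of 6 in each list, and for erythroid cells and megakaryocytes 3 of 5 in each. For dendritic cells and stromal cells it was 4 of 4 and 4 of 5 in each. Over all protein-coding genes 85.8% had an R848 window peak and 89.0% an untreated one, and no marker set was tested against these shares.

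The annotated starts with a peak of either list within 1000 bp are shown first, as 300 bases each (250 before and 50 after the start). The sequences are as RefSeq's promoter table holds them for GRCm38.p6 (the assembly behind mm10). Of the 9 genes, 5 have an entry there, with 8 starts in all: Cebpa, Cebpb and Tfec with 1 each, Runx1 with 2 and Mitf with 3. Cebpb and the proximal Runx1 start lay under peaks of both lists, the Cebpa start under an untreated peak, and the distal Runx1 start under an untreated peak, which is why these 4 are printed. Capitals mark motif letters found on either strand (a match on the other strand reads as the reverse complement): GGGCGG (GC box), TGTGGTT (RUNX) and CACGTG (E-box, the kind of site that MITF and TFEC bind). The Cebpa start and the proximal Runx1 start hold none of the motifs searched and so have no capitals.
Cebpb start, chr2:167688665-167688964, plus strand: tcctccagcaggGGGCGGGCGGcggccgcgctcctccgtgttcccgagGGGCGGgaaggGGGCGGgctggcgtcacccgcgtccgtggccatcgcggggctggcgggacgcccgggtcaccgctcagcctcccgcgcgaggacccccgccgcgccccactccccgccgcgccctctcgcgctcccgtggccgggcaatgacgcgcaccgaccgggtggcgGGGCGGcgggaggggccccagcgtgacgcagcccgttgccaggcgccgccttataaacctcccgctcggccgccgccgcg
Cebpa start, chr7:35119043-35119342, plus strand: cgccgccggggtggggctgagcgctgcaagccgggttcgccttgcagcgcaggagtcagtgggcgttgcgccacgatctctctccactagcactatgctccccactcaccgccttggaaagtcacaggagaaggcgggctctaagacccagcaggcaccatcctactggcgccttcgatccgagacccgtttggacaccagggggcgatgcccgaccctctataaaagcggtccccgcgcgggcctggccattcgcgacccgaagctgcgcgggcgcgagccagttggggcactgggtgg
Runx1 proximal start, chr16:92697280-92697579, minus strand: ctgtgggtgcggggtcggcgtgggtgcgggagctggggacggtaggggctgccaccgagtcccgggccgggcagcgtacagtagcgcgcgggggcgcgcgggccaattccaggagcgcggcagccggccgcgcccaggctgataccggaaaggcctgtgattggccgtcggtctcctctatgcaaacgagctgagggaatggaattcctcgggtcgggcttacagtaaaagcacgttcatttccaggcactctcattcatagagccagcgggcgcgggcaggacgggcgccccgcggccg
Runx1 distal start, chr16:92826025-92826324, minus strand: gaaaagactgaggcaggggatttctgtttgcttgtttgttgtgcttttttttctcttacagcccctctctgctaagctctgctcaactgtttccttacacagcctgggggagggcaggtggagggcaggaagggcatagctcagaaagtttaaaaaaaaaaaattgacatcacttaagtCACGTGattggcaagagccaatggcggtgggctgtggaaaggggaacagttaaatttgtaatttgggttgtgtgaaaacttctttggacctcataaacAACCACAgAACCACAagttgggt

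These starts differ in base composition. The Cebpb window was 80.7% G and C with 50 CpG, the proximal Runx1 window 69.0% with 35 and the Cebpa window 67.3% with 29, against a median of 52.7% and 7 CpG over 32851 promoters of the table. The distal Runx1 window, with an untreated but no R848 peak, was 45.0% G and C with 2 CpG. A CpG-rich start did not always carry a peak: the first Mitf start had 62.7% and 22 CpG and no peak of either list within 1000 bp. The Tfec start had 40.3% and 3 CpG and no peak either. The second Mitf start (55.7%, 5 CpG) and the third (40%, 8 CpG) also had none. The share of all CpG-rich starts with a peak was not counted. In all, 3 of the 8 starts had an R848 peak within 1000 bp and 4 an untreated one, where 18.0% and 21.4% of all starts did.

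The motif counts in these windows were small. GGGCGG was found at 2 of the 8 starts, where 35.7% of all promoters held it: 5 times at Cebpb, some of them overlapping, and 2 times at the first Mitf start, which has no peak. The RUNX letters were found at 3 of the 8 starts (the distal Runx1 start, the first Mitf start and the Tfec start), where 5.27% of all promoters held them, and the distal Runx1 window held them 2 times, close to its end. CACGTG was found at 1 of the 8, the distal Runx1 start (7.15% of all promoters). GAGGAAG, the core of PU.1 sites, was found at 1, the Tfec start (13.6%). TGACGT, part of the cyclic AMP response element, was found at 1, the third Mitf start (7.51%). TTGCGCA (C/EBP, 2.02%) and TGAGTCA (AP-1, 5.20%) were found at 0 of the 8. A match is a run of letters and not a measured site.

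Around the 9 genes the R848 list held 30 peaks and the untreated list 44, and 10 of each were shared. All 10 shared peaks formed pairs of 1 peak per list. The share was 33.3% of R848 peaks (95% exact binomial interval 17.3 to 52.8) and 22.7% of untreated peaks (11.5 to 37.8), where the whole lists had 35.8% and 31.0%. An R848 peak lay in the window of 7 of the 9 genes and an untreated peak in that of 9, and over all protein-coding genes 85.8% and 89.0% had one. A shared peak was found at Spi1, Cebpa, Cebpb, Cebpd, Runx1, Mitf and Csf1r, which is 7 of 9, against 60.9% of all genes. Maf and Tfec had no R848 peak and no shared peak. These counts were close to the background.

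**Figure D1:**
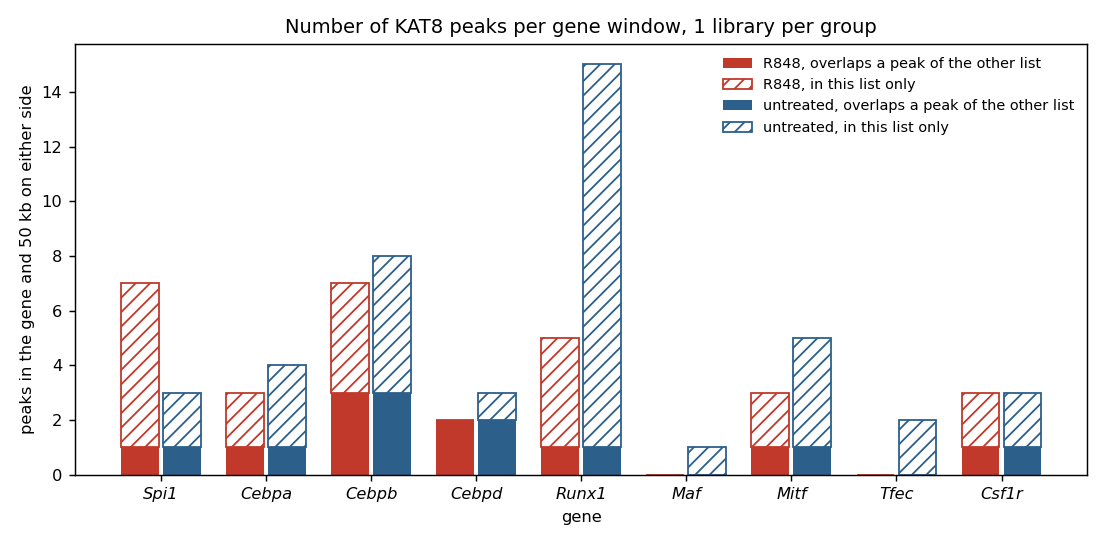
Number of KAT8 peaks (y axis) in each gene (x axis) and the 50 kb on either side of it, with the R848 bar left of the untreated bar; solid parts are peaks that overlap a peak of the other list and hatched parts are peaks of 1 list only. Spi1 had 7 R848 and 3 untreated peaks, Runx1 5 and 15, and Maf and Tfec 0 R848 peaks.

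The genes did not all lean the same way. Spi1 alone had more R848 than untreated peaks (7 and 3), and 28.1% of all genes did. This did not hold for peaks with a q of at most 0.05, of which Spi1 had 1 in each list and Cebpa had 3 R848 and 2 untreated ones, where all its peaks numbered 3 and 4. Csf1r had 3 in each list. The other 7 genes had fewer R848 peaks, as had 46.7% of all genes, and the untreated list was 1.16 times as long. The widest gap was at Runx1, with 5 and 15. The median per window was 3 in each list, against 2 R848 and 3 untreated peaks per window over all genes. Per 100 kb of window the members had a median of 1.96 R848 and 2.39 untreated peaks, against 1.77 and 1.98 over all genes, with Cebpb the densest at 6.90 and 7.88.

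**Figure D2:**
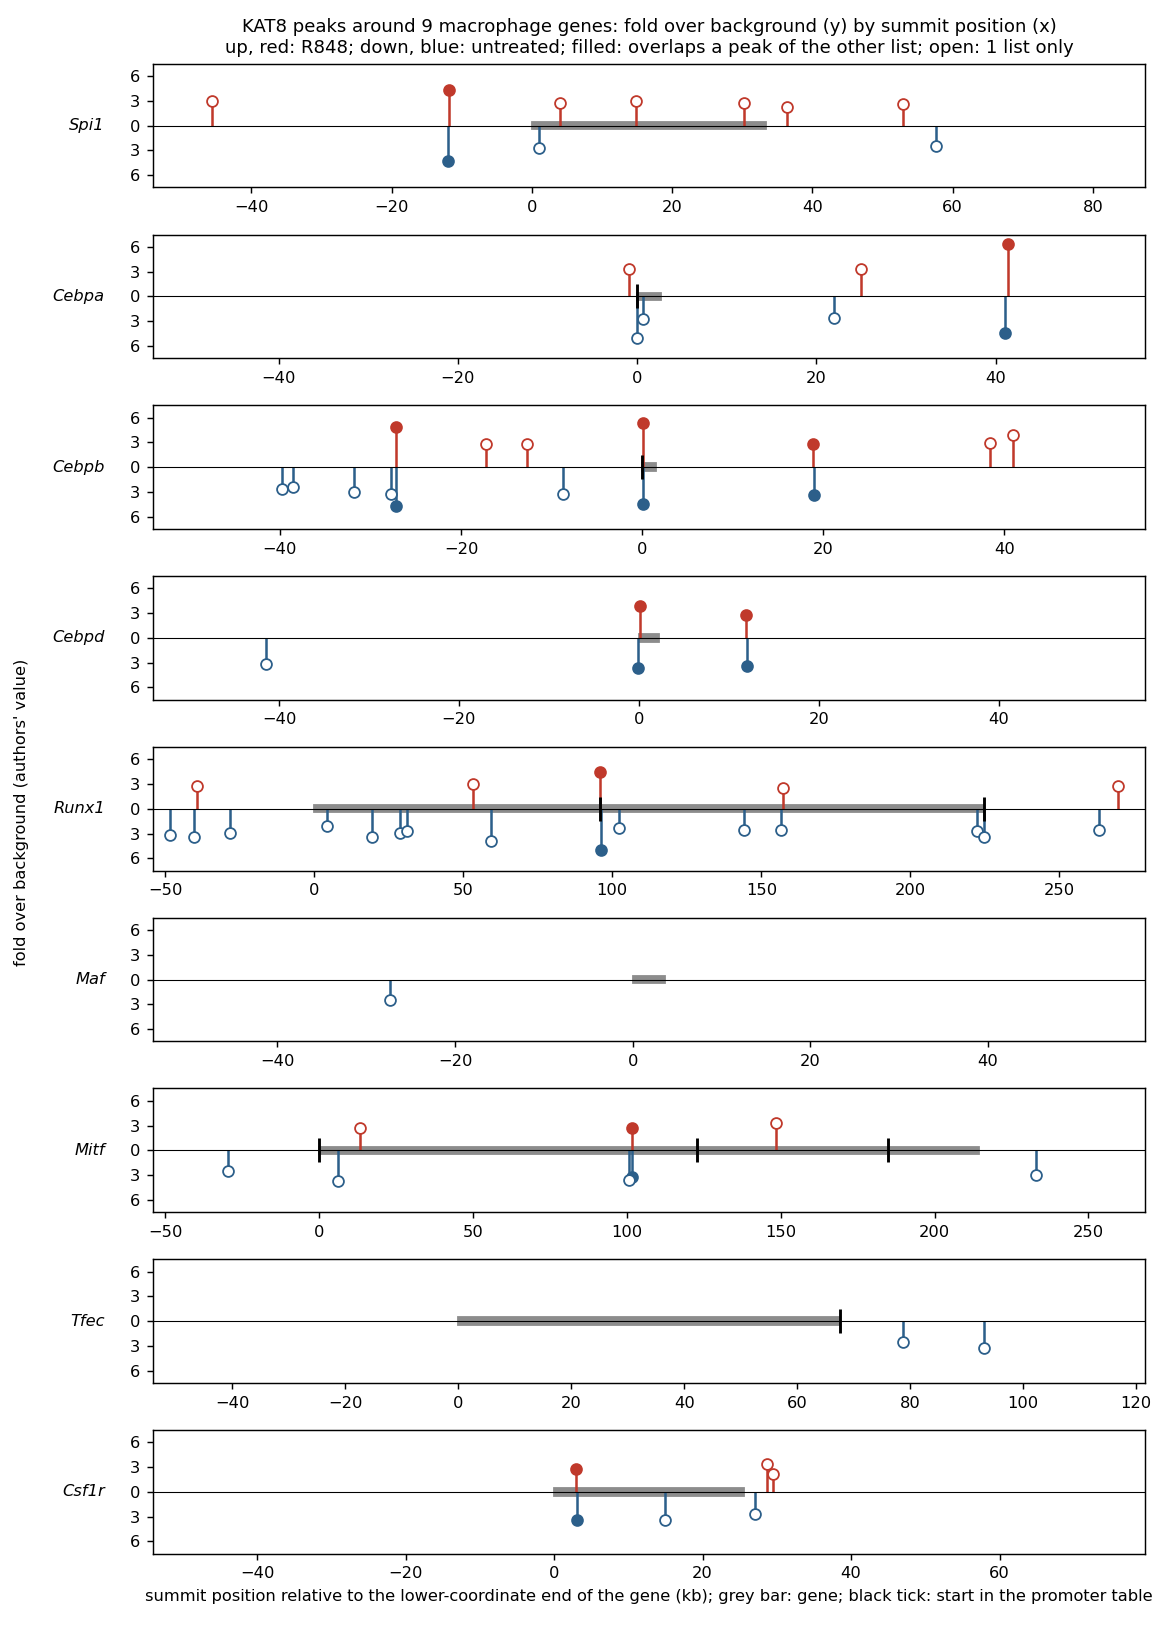
KAT8 peaks around each of the 9 genes: the x axis gives the summit's distance in kb from the lower-coordinate end of the gene (grey bar, with black ticks at starts in the promoter table), and the height gives the authors' fold over background, upward in red for R848 and downward in blue for untreated. Filled points overlap a peak of the other list. They stand at the start of Cebpb and the lower-coordinate end of Cebpd, inside Runx1, Mitf and Csf1r, and outside the gene at Spi1, Cebpa, Cebpb (27.1 kb before and 18.8 kb after the start) and Cebpd (11.9 kb from its lower-coordinate end).

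Spi1 encodes PU.1, the ETS factor that commits cells to the myeloid lineage. It lies on chromosome 2 at 91082374 to 91115759. Of its 7 R848 and 3 untreated peaks, 1 pair was shared. The shared peak lay outside the gene, at chr2:91070136-91070691 (556 bp) in the R848 list and chr2:91070269-91070705 (437 bp) in the untreated list. Its summit was 11.8 kb below the lower-coordinate end of Spi1 in the R848 list and 12 kb below it in the untreated list. The R848 peak had a fold of 4.33, a −log10 p of 8.11 and a −log10 q of 4.43, and the untreated peak 4.35, 8.45 and 4.8. It stood within 1000 bp of the ends of Slc39a13, a zinc transporter gene, and of the long non-coding RNA gene Gm39874, and was the highest of the window in both lists.

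Within Spi1 itself the lists had peaks at different places. The R848 list had 3 summits inside the gene, at 3.94, 14.8 and 30.3 kb from its lower-coordinate end, with folds of 2.68, 3.01 and 2.76 and −log10 q of 0.722, 1.01 and 0.581. The untreated list had 1, at 958 bp, with a fold of 2.77, a −log10 p of 3.88 and a −log10 q of 1.01 (chr2:91082963-91083501, 539 bp). None of these 4 reached a q of 0.05. The R848 peak at 14.8 kb was the widest in the Spi1 window (962 bp, chr2:91096366-91097327), and its summit was 13.9 kb from that of the untreated peak. The annotation table gives 1 interval for all Spi1 transcripts, so neither peak was assigned to a promoter or to the upstream regulatory element known at this gene. The other R848 peaks of the window lay in Rapsn (fold 3.04) and in Mybpc3, a heart muscle gene (2.31 and 2.63), and the other untreated peak lay in Madd (2.52).

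Cebpa encodes C/EBPα, which drives the step from progenitor to granulocyte and monocyte. It lies on chromosome 7 at 35119293 to 35121928, on the plus strand. The R848 peak of highest fold near any of the 9 genes lay 41.4 kb after its start, at chr7:35159858-35160891 (1034 bp), with a fold of 6.36, a −log10 p of 16.0 and a −log10 q of 11.9, higher than or equal to 98.2% of R848 peaks. The untreated list had a peak of nearly the same extent there, at chr7:35159834-35160855 (1022 bp), with a fold of 4.47, a −log10 p of 9.62 and a −log10 q of 5.89 (94.7%). The peaks overlapped by 998 bp, and their summits were 358 bp apart, the largest distance among the 10 pairs. The place is inside the long non-coding RNA gene Gm38988. The nearest summits to the point 37 kb after the start, where a Cebpa enhancer is known in mouse, were this pair, 4.41 kb (R848) and 4.05 kb (untreated) from it, and no peak came within 1500 bp of that point.

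At the Cebpa start the lists had peaks at different places. The R848 peak lay wholly before the start, at chr7:35118024-35118531 (508 bp, summit 957 bp before the start), with a fold of 3.32, a −log10 p of 4.70 and a −log10 q of 1.51. The untreated list had a peak across the start, at chr7:35118927-35119555 (629 bp, summit 7 bp before it), with a fold of 5.0, a −log10 p of 11.1 and a −log10 q of 7.28. It had the highest fold of all 34 untreated peaks that did not overlap an R848 peak, its pileup was 22 fragments (13.8 to 33.3), and it covered all 300 bases of the Cebpa sequence printed above, of which the R848 peak covered 0. A gap of 395 bp separated the R848 peak from it. Scaled to the background of the R848 library, its pileup comes to 17.1 fragments. Why the R848 list has no peak across the start was not tested. A second untreated peak followed at 656 bp after the start (chr7:35119836-35120035, 200 bp, fold 2.73, −log10 p 3.82, −log10 q 0.948). One further peak per list lay between the gene and the distal pair, at 24.9 kb in the R848 list (3.32) and 22.0 kb in the untreated list (2.68).

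Cebpb encodes C/EBPβ, the C/EBP factor of mature and activated macrophages, and lies on chromosome 2 at 167688915 to 167690432, on the plus strand. With 3 shared pairs it had the most of any member. The start carried a peak in both lists, at chr2:167688708-167689421 in the R848 list (714 bp, summit 122 bp after the start) and chr2:167688779-167689330 in the untreated list (552 bp, summit 55 bp after it). The R848 peak had a fold of 5.40, a −log10 p of 16.1 and a −log10 q of 12, and the untreated peak 4.43, 11.4 and 7.54. These were also the deepest summits of the 9 windows, with 33 fragments in the R848 list (22.7 to 46.3) and 27 in the untreated list (17.8 to 39.3). The R848 peak covered 257 bases of the printed Cebpb sequence and the untreated peak 186.

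A second Cebpb pair lay 27.1 kb (R848) and 27.2 kb (untreated) before the start, within 1000 bp of an end of Tmem189, and had nearly the same fold in the lists. It was chr2:167661614-167662130 (517 bp, fold 4.85, −log10 p 9.79, −log10 q 5.96) in the R848 list and chr2:167661499-167662075 (577 bp, 4.73, 11.5 and 7.65) in the untreated list. The remaining pair had the smallest overlap of the 10, at 18.8 kb (R848) and 19.0 kb (untreated) after the start. Its peaks, chr2:167707400-167707790 (391 bp, fold 2.85, −log10 p 3.71, −log10 q 0.851) and chr2:167707743-167708125 (383 bp, 3.36, 5.64 and 2.35), overlapped by 48 bp. The other 4 R848 peaks had folds of 2.76 to 3.89, the highest at 40.9 kb after the start in the long non-coding RNA gene Gm38464. The other 5 untreated peaks had folds of 2.46 to 3.20 and lay before the start, 4 of them in Tmem189.

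Cebpd encodes C/EBPδ, a factor induced in acute-phase responses, and lies on chromosome 16 at 15887286 to 15889545. Both its R848 peaks were shared, so it had 0 peaks in the R848 list only. One pair lay at its lower-coordinate end, with summits 81 bp inside the gene in the R848 list and 87 bp outside it in the untreated list. The peaks were chr16:15887138-15887543 (406 bp, fold 3.87, −log10 p 6.14, −log10 q 2.69) and chr16:15887145-15887385 (241 bp, 3.66, 6.25 and 2.85). The second pair lay 11.9 kb (R848) and 12 kb (untreated) from that end, inside Spidr, a DNA repair gene whose annotated interval overlaps Cebpd. It was chr16:15899062-15899351 (290 bp, fold 2.76, −log10 p 3.40, −log10 q 0.581) and chr16:15899177-15899380 (204 bp, 3.43, 5.57 and 2.28). The remaining untreated peak lay 41.4 kb below the gene (3.20).

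Runx1 encodes the DNA-binding subunit of core binding factor and is transcribed from a distal and a proximal promoter. It lies on chromosome 16 at 92601466 to 92826074, on the minus strand, so that the distal start is its upper-coordinate end. The proximal start carried a peak in both lists, and the distal one in the untreated list only. The proximal peaks were chr16:92697228-92697859 in the R848 list (632 bp, summit 79 bp before the start, fold 4.42, −log10 p 7.70, −log10 q 4.04) and chr16:92697080-92697897 in the untreated list (818 bp, 263 bp before it, 5.04, 10.8 and 7.01). Both covered all 300 bases of the printed proximal sequence and were the strongest peaks of the Runx1 window.

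The distal peak, chr16:92825955-92826193 (239 bp), had its summit 65 bp after the start, with a fold of 3.43, a −log10 p of 5.57 and a −log10 q of 2.28, and covered 169 bases of the printed distal sequence. Its pileup was 14 fragments (7.65 to 23.5), which comes to 10.9 when scaled to the background of the R848 library, where the lowest pileup in the list was 7. That lowest pileup is not a calling threshold for this place. Why the R848 list has no peak there was not tested. The nearest R848 summit to the distal start was 45.0 kb away. No peak of either list lay within 1500 bp of the point 23 kb after the distal start, where a stem cell enhancer is known in mouse, and the nearest summits to it were 44.5 kb (R848) and 20.8 kb (untreated) away.

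Over the rest of the Runx1 window the untreated list had many weak peaks. Its 14 untreated-only peaks had folds of 2.06 to 3.89, and 5 of them reached a q of 0.05. The highest, at 3.89 over background (−log10 q 3.47), lay inside the gene at 36.4 kb after the proximal start (chr16:92660872-92661096, 225 bp), and the next, besides the distal one, had 3.43 at 76.3 kb after the proximal start and 136 kb after it, beyond the end of the gene. The 4 R848-only peaks had folds of 2.49 to 3.04, and none reached a q of 0.05. The highest (chr16:92654709-92654936, 228 bp, −log10 q 1.01) lay inside the gene, 42.5 kb after the proximal start. The next, with 2.76 each, lay outside it, 39.4 kb below its lower-coordinate end (chr16:92561869-92562240) and 45.0 kb before the distal start (chr16:92871049-92871573). At 2 places an R848-only peak and an untreated-only peak came within 1000 bp of each other without overlap, with gaps of 308 and 712 bp.

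Maf encodes c-MAF, a basic leucine zipper factor that in macrophages drives Il10, and lies on chromosome 8 at 115703253 to 115706894. Its window held 0 R848 peaks and 1 untreated peak. That peak (chr8:115675797-115676039, 243 bp) lay 27.3 kb below the gene, with a fold of 2.52, a −log10 p of 3.12 and a −log10 q of 0.462. With 100 kb on either side the Maf window held 3 R848 and 2 untreated peaks, of which 2 R848 peaks were shared.

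Mitf and Tfec encode related basic helix-loop-helix factors that bind the same E-box. Mitf lies on chromosome 6 at 97807002 to 98021360, on the plus strand, and held 3 R848 and 5 untreated peaks, none of them within 1000 bp of its 3 starts in the table. The shared pair lay inside the gene, 102 kb from its lower-coordinate end and 21.1 kb before the second start. The peaks were chr6:97908525-97908992 (468 bp, fold 2.74, −log10 p 3.51, −log10 q 0.677) in the R848 list and chr6:97908645-97908850 (206 bp, 3.28, 5.26 and 2.06) in the untreated list. Their summits were 3 bp apart, the closest of the 10 pairs. The highest peaks of the window were not shared: an R848 peak of 3.32 (chr6:97955207-97955441, −log10 q 1.51) and an untreated peak of 3.66 at 6.11 kb after the first start (chr6:97812994-97813317, −log10 q 2.85). The remaining R848 peak lay 13.2 kb after the first start (chr6:97820083-97820290, fold 2.76, −log10 q 0.581). An untreated peak of 3.59 ended 674 bp before the R848 peak of the shared pair.

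Tfec, on chromosome 6 at 16830927 to 16898464 and on the minus strand, held 0 R848 peaks and 2 untreated peaks, both before its start. They lay 11.2 kb (chr6:16909583-16909839, fold 2.52, −log10 q 0.462) and 25.6 kb (chr6:16923979-16924178, 3.20, 1.75) from it. Tfec had 0 R848 peaks also with 100 kb on either side.

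Csf1r, the M-CSF receptor gene, lies on chromosome 18 at 61105572 to 61131139. Its 2 ends were free of peaks in both lists, by the 1000 bp measure used for all genes. The shared pair lay inside it, with summits at 2.89 kb (R848) and 3.03 kb (untreated) from the lower-coordinate end. The R848 peak, chr18:61108313-61108604 (292 bp), had a fold of 2.76, a −log10 p of 3.40 and a −log10 q of 0.581, and the untreated peak, chr18:61108279-61108783 (505 bp), 3.38, 5.46 and 2.25. The R848 peak lay wholly within the untreated one. Csf1r is known for an intronic enhancer in the first part of the gene. Exons were not used here, and whether this pair lies on that enhancer was not tested.

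The other Csf1r peaks were in 1 list only. The untreated list had 1 more inside the gene at 14.9 kb (chr18:61120216-61120696, fold 3.43, −log10 q 2.28) and 1 just beyond its upper-coordinate end, 1.52 kb away in Hmgxb3 (2.64, 0.831). The R848 list had 2 beyond that end, also in Hmgxb3, at 3.09 kb (chr18:61134043-61134426, 3.37, 1.79) and 3.88 kb (2.19, 0). On that side of the gene the R848 and untreated peaks did not overlap and were 1347 bp apart at the nearest.

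At the ends of the genes, 3 of 9 members had an R848 peak within 1000 bp (Cebpa, Cebpb and Cebpd) and 5 had an untreated one (the same 3, Spi1 and Runx1), and 24.4% and 28.8% of all genes did. The peaks overlapped at 2 of the 9, Cebpb and Cebpd, where 16.4% of all genes had an overlap at an end. The highest peak of the window was a shared one at 5 of the 7 genes with R848 peaks and at 4 of the 9 with untreated peaks, against 57.9% and 54.8% of all genes with a peak. In both lists these were Spi1, Cebpb, Cebpd and Runx1, and Cebpa in the R848 list.

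The 10 shared pairs allow the libraries to be set side by side at the same places. Divided by the most common background of each library, the R848 pileup was 0.827 to 1.65 times the untreated one. The highest ratios were at the distal Cebpa pair, with 27 R848 and 21 untreated fragments (1.65, 95% exact interval 0.901 to 3.08), and at the Cebpb start, with 33 and 27 (1.57, 0.917 to 2.72). The Spi1 pair had 17 and 18 (1.21, 0.588 to 2.50) and the Cebpd end 13 and 15 (1.11, 0.488 to 2.51). These 4 were the pairs above 1 by this scaling, which leaves out the local background. That was 5.3 (R848) and 5.32 (untreated) at the Cebpb start, and 3.16 and 3.37 at the Spi1 pair. The authors' fold, which uses it, was higher in the R848 list at 4 pairs and in the untreated list at 6. By fold the Spi1 pair (4.33 and 4.35) left the 4, and the pair 27.1 kb before Cebpb (4.85 and 4.73) joined them.

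The other 6 pairs had ratios below 1. The pair before Cebpb had 19 R848 and 25 untreated fragments (0.978, 0.509 to 1.85), and the proximal Runx1 start 15 and 21 (0.919, 0.441 to 1.87). The Mitf pair had 10 and 14 (0.919, 0.365 to 2.22), and the pair after Cebpb 10 and 15 (0.858, 0.345 to 2.04). Csf1r had 9 and 14 (0.827, 0.316 to 2.05), as had the Cebpd pair inside Spidr. The interval held 1 at each of the 10 pairs, so no difference was detectable there at this depth. Only places with a peak in both lists form a pair. Peaks of 1 list only, such as the untreated peak across the Cebpa start, were left out beforehand. The pairs do not speak for them. The intervals compare 2 lists, each read as counts of its own library, and not 2 conditions. Whether the R848 list was called on the 2 h library alone is not known.

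**Figure D3:**
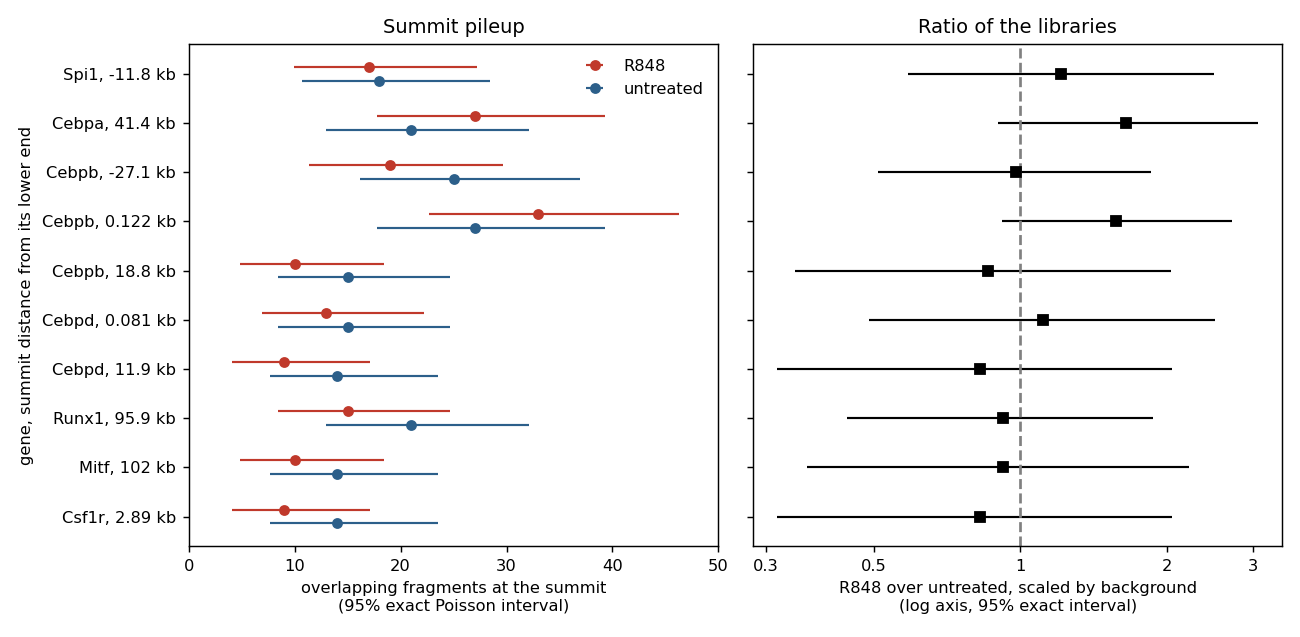
The 10 shared pairs, named by gene and by the distance of the R848 summit from the gene's lower-coordinate end. Left, overlapping fragments at the summit with 95% exact Poisson intervals, R848 (red) above untreated (blue). Right, the ratio of R848 to untreated after scaling by each library's most common background, on a log axis with its 95% exact interval. All of these ratio intervals cross the dashed line at 1.

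In these windows the shared peaks had higher median folds and widths than the others. Around the 9 genes the shared peaks had a median fold of 4.10 in the R848 list (2.74 to 6.36) and 4.00 in the untreated list (3.28 to 5.04), against 3.32 and 3.20 over all shared peaks of each list. Peaks of 1 list only had a median of 2.76 in the R848 list (2.19 to 3.89) and 2.88 in the untreated list (2.06 to 5.0), where all such peaks had 2.76 and 2.75. The median width was 492.5 bp for shared R848 peaks and 471 bp for shared untreated ones, against 236.5 and 241 bp for peaks of 1 list only. Over all peaks of each list it was 281 bp, which was not split by class. A wider peak meets the 1 bp overlap more easily, and how much this adds was not tested. Over the whole lists a q of 0.05 was reached by 41.1% of R848 and 36.3% of untreated peaks, shares not split by class. Around the 9 genes it was reached by 5 of the 20 R848-only peaks and 14 of the 34 untreated-only peaks. Of the shared ones, 6 of 10 R848 peaks and 10 of 10 untreated peaks reached it. The R848 peaks that fell short were those of Mitf, Csf1r, the pair after Cebpb and the Cebpd pair inside Spidr. A peak of the other list lay within 1000 bp of 3 of the 20 R848-only and 5 of the 34 untreated-only peaks. This was not counted over all such peaks, so it cannot be read as a trait of the 9 genes.

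**Figure D4:**
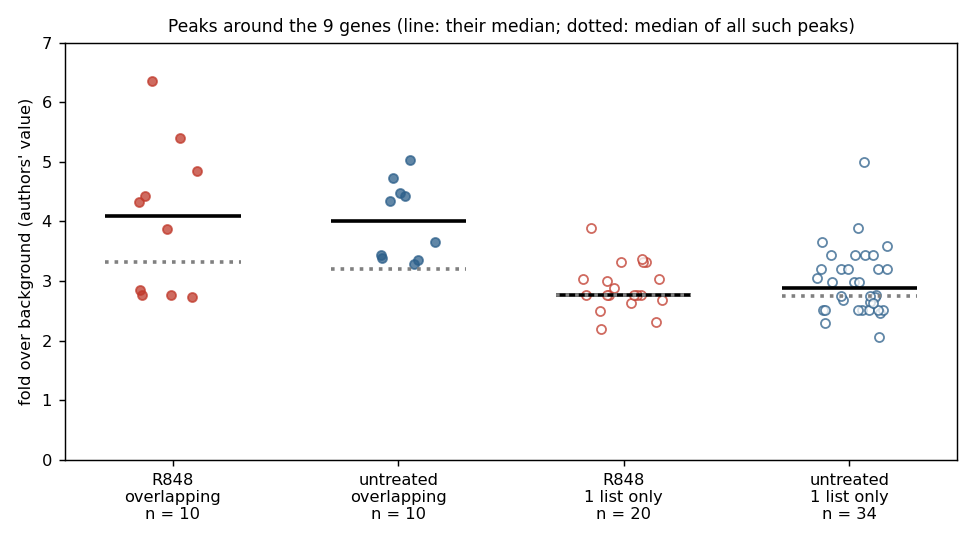
Authors' fold over background (y axis) of the peaks around the 9 genes, by list and by whether they overlap a peak of the other list (x axis). Solid lines are the medians of the points (4.10, 4.00, 2.76 and 2.88) and dotted lines the medians of all such peaks of the list (3.32, 3.20, 2.76 and 2.75).

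Other genes of the lineage were counted at their ends by the same 1000 bp measure. Of 28 related factors, 13 had an R848 peak and 12 an untreated one, and 11 had both. Over all protein-coding genes the shares were 24.4% and 28.8%, and no test sets any of these lists apart from them. Elf1, an ETS factor (fold 5.82 in the R848 list and 4.87 in the untreated list), Id2, an inhibitor of helix-loop-helix factors (5.81 and 5.37), Egr1, an early growth response factor (3.77 and 5.46), and Ets2 (4.14 and 5.04) led the 11 when each gene was ranked by the higher of its 2 folds. Irf8, the monocyte lineage factor (3.04), and Nr1h3, which encodes LXRα (2.49), had an R848 peak only, and Klf4 an untreated one only (2.98). Among the 11 were also Cebpg, Tfeb, Tfe3 and Cbfb, the partner of RUNX1, with folds of 2.76 to 3.88 in the R848 list and 3.04 to 4.12 in the untreated list. The q of peaks at these genes, and at those of the lists below, is not given here. In the Runx1 window an R848 peak of fold 3.04 had a −log10 q of 1.01, and an untreated peak of 2.98 had 1.26. Both fell short of a q of 0.05. A peak in only the R848 or only the untreated list is therefore not read as binding in that condition alone. The share of all genes with such an end peak was not counted.

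Of 24 genes of the CSF1 receptor pathway, 11 had an R848 peak and 11 an untreated one, 8 of them both. Cbl, the ubiquitin ligase that removes activated CSF1R, had the highest folds (11.5 in the R848 list and 12 in the untreated list), followed, by the higher of the 2 folds, by the adaptor genes Gab2 (5.53 and 4.35) and Dok2 (3.32 and 4.35) and the kinase subunit gene Pik3r1 (3.87 and 4.12). Kit, a related receptor (3.32), Sos1 (3.04) and the phosphatase gene Inpp5d (2.82) had an R848 peak only. Grb2, the adaptor that binds the activated receptor (3.66), Il34, another CSF1R ligand (2.75), and Plcg2 (2.52) had an untreated peak only. Whether these R848-only and untreated-only peaks reached a q of 0.05 was not tested.

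Of 18 target genes of these factors in macrophages and osteoclasts, 6 had an R848 peak and 4 an untreated one, 3 of them both, which is near the shares over all genes. These were Cd68, a lysosomal membrane glycoprotein (3.12 and 4.04), Oscar, an osteoclast receptor (3.32 and 2.52), and Fcgr3, an Fc receptor (3.20 and 3.06). Cd14 (3.04), Mertk, a receptor for dead cells (2.76), and Acp5, the acid phosphatase of osteoclasts (2.76), had an R848 peak only, and Gpnmb (2.64) an untreated one only. Whether the peaks of these genes reached a q of 0.05 was not tested. Of 7 macrophage markers, Cd68 and Mertk had an R848 peak at an end, and Cd68 alone an untreated one. For B cells and for granulocytes the count was 0 of 6 in both lists. Cd3d (2.76, R848) was the one of 6 for T cells, Siglech (2.52, untreated) the one of 4 for dendritic cells and Twist1 (2.76 and 3.20) the one of 5 for stromal cells. Gp9 (5.73 and 6.41) and Klf1 (2.76 and 2.98) were 2 of 5 for erythroid cells and megakaryocytes.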

How the data were processed

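The deposited data from KAT8 CUT&Tag are 1 narrowPeak list under each library's label, and grouping followed the treatment label. Per the submitters' processing notes, the tools were MACS2 2.2.7.1, Bowtie 0.12.8 and DiffBind, and the build was mm10, with no roles stated. Peak calling settings and the use of a control library: not given in the sources used here. Peak names begin with MOF0h in the untreated list and MOF0h2h in the R848 list, and what MOF0h2h stands for is not stated (MOF is another name of KAT8). The deposited values per peak are −log10 p, −log10 q, fold over background (a ratio), a score (not used) and a summit, all made by the authors. The lowest −log10 p was 2.01 in both lists, and q was 0.05 or less for 41.1% of R848 and 36.3% of untreated peaks.

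From these, summit pileup n and background b were solved from fold = (n + 1) / (b + 1) and the Poisson tail P(X > n) = p, and all 74 window peaks fitted to within 0.001 in −log10 p. Overlaps (at least 1 bp) were counted with Python 3.11.15 and checked with bedtools 2.31.1, and the code was tested on simulated data. Intervals are 95% exact (Clopper-Pearson for shares, Poisson for pileups, conditional binomial for ratios). Genes and promoter sequences came from RefSeq tables of GRCm38.p6. The members, lists and settings were chosen with earlier results of these data known. The peaks given one by one are those that are shared, those within 1000 bp of a member's end and the 3 of highest fold per list and gene, and some others are named beside them. From each gene list, up to 4 genes with a peak in 1 library only per direction and up to 4 with one in both are named by falling fold (the higher of the lists' folds), and Cebpg, Tfeb, Tfe3 and Cbfb were added after their values were seen. Alternatives were a q of 0.05, lists of equal length, summits within 250 bp, overlap of 50% of each peak, gene ends of 500 or 3000 bp and windows of 10 or 100 kb.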

Additional observations from a re-analysis of the deposited data

How the results depend on the processing

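When each list was limited to a q of at most 0.05, the windows held 11 R848 and 24 untreated peaks. The shared part was 54.5% of R848 peaks (23.4 to 83.3) and 25% of untreated peaks (9.77 to 46.7). Shares of the whole lists under this limit were not counted. The cause of the higher R848 share was not tested. Where such peaks were compared with any peak of the other list, an alternative added after the data were seen, the counts were again 11 and 24 and the shared parts 54.5% of R848 and 41.7% of untreated peaks. Under the first of these, 5 members had a shared peak, and Mitf and Csf1r had none. With 10 kb on either side the windows held 17 R848 and 24 untreated peaks, and with 100 kb 46 R848 and 63 untreated peaks. A narrower or wider window holds fewer or more peaks. A shared peak was left at 5 members with 10 kb, where Spi1 and Cebpa had 0, and was found at 8 with 100 kb. With gene ends of 3000 bp, 5 members had an R848 peak at an end and 6 an untreated one. With 500 bp the counts were 2 and 4. Shares of all genes at these 2 limits were not counted, so the counts cannot be read as a trait of the members. Scaling untreated pileups to the R848 background, also added after the data were seen, and keeping those at or above 7 left 42 untreated peaks. Over all alternatives the summary values stayed within 1.5 times the count or inside its interval in 37 cases and moved in 11. The counts of single genes stayed in 124 cases and moved in 56. At a q of 0.05, Runx1 had 1 R848 and 6 untreated peaks. Cebpa had 0 shared R848 peaks when summits had to lie within 250 bp, and Mitf had 0 at an overlap of 50% of each peak. With pileups of 7 to 33 fragments, differences under about the width of the intervals given for each pair cannot be seen. No paired analysis was possible because each group has 1 library and no result comes from a test.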
